A study of Mus musculus with 8 samples.

Results

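Genes of the cell cycle and of DNA replication were examined in the cochlea of mice without the microRNA genes Mir183 and Mir96. The set holds 40 genes picked by name for their role in copying DNA or in mitosis, with earlier results of these data known. Of these genes 38 were measured, out of 22180 genes with a usable array feature. A feature is the group of probes that reports a transcript, and a gene counted as measured where the platform annotation linked a feature to its symbol alone. Of the remaining members, the Ccne2 feature is shared with another symbol and no feature carries Ccnb1, so cyclin E2 and cyclin B1 were not analysed here. Rrm2 has 2 features, and the one with the higher mean, at -0.38 against -0.05 for the other, stands for it in all counts.

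Gene expression was read on 8 Affymetrix Mouse Gene 2.0 ST arrays, each from 1 animal at postnatal day 16. The 4 knockout animals carry the genotype miR-183/96 KO, and the 4 control animals are wild type per the series' design text. Each sample is total RNA of the entire cochlea inside its bony capsule, with both ears of an animal combined, so bone and any marrow in the capsule are part of it. Strain, sex and the construction of the allele were not given in the sources used here. All values are log2 values made by the authors with RMA. This method corrects background, equalises the distribution of the arrays and summarises the probes of a feature. The deposited values still differed in distribution, with array medians from 5.10 to 5.28 over all features of the platform. In such bulk samples, fewer cells of a type and less RNA per cell cannot be told apart.

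The microRNAs removed in the knockout are short RNAs that repress messenger RNAs through their seed. Their main mature forms, from RefSeq (GRCm38.p6), are shown so that the deleted sequence is clear, with the seed, bases 2 to 8, in capitals. Both lie on the minus strand, miR-96-5p at chr6:30169506-30169528 and miR-183-5p at chr6:30169711-30169732.
miR-96-5p: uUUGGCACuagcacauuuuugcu
miR-183-5p: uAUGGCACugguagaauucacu

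As background, a dividing cell first loads the MCM helicase on its DNA, copies the DNA in S phase, and then separates the copies in mitosis under the control of cyclin-dependent kinases. Most replication genes are driven by E2F transcription factors. Most mitotic genes are controlled by the DREAM and MuvB complexes, which bind the CHR element of their promoters. Hair cells and supporting cells of the maturing organ of Corti no longer divide, and cell cycle inhibitors such as Cdkn1b are known to hold them there. Blood cell precursors in marrow do divide.

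Promoter sequences show what the members share besides their function. RefSeq promoter windows (GRCm38.p6) matched 33 of the 40 members, and the 250 bases before the start of each gene were searched on both strands. The E2F motifs searched were TTTGGCGC, TTTCCCGC, TTTGCCGC and TTTCGCGC, the CHR motifs were TTTGAA and TTCGAA, and the box bound by NF-Y was CCAAT. Matches of TTTGGCGC on a strand and of TTTCGCGC on the other can overlap, as they do in Mcm5 and Mcm6. Mcm7 and Uhrf1 have 2 windows each, and a member counts here when either window holds a match, while the share over all 32817 windows counts single windows. An E2F motif was found for 6 of 16 replication members (37.5%) and for 0 of 13 mitotic members, against 1.86% of all windows. For Mcm7 and Uhrf1 it stood in 1 of the 2 windows. A CHR motif was found for 4 of 13 mitotic members (30.8%) and for 3 of 16 replication members (18.8%), against 17.1% of all windows. CCAAT was found for 26 of the 33 members (78.8%), against 33.8% of all windows. A match describes letters in the window and does not show a bound site.

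The 5 promoters printed here were picked after the motif search to show each pattern, and capitals mark the motif matches. Mcm5, at chr8:75109259-75109508 (+ strand), and Mcm6, at chr1:128359706-128359955 (- strand), encode helicase subunits and carry overlapping E2F matches. Cdk1, at chr10:69352913-69353162 (- strand), encodes the mitotic kinase and has matches of all 3 kinds. Top2a, at chr11:99024190-99024439 (- strand), encodes a DNA-untangling topoisomerase and holds 4 CHR and 6 CCAAT matches. Cenpe, at chr3:135212313-135212562 (+ strand), encodes a kinetochore motor and holds a single CCAAT match.
Mcm5: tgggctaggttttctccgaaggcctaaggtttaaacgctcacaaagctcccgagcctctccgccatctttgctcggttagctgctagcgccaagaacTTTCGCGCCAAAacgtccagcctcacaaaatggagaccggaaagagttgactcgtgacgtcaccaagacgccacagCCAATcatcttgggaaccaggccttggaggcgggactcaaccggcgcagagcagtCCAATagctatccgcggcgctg
Mcm6: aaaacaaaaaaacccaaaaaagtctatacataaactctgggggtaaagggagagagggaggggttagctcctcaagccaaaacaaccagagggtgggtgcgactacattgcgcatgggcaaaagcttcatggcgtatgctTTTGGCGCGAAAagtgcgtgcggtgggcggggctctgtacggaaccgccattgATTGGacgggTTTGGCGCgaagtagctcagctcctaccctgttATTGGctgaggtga
Cdk1: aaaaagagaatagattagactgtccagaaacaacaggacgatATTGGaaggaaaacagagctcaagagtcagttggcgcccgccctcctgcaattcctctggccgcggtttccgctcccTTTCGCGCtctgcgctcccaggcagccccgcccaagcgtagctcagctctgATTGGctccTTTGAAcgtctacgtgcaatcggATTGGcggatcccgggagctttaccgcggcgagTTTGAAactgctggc
Top2a: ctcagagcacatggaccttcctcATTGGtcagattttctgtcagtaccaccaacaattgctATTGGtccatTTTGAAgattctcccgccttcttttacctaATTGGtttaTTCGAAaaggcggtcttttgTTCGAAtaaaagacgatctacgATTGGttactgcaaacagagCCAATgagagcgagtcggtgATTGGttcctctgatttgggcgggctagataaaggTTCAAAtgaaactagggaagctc
Cenpe: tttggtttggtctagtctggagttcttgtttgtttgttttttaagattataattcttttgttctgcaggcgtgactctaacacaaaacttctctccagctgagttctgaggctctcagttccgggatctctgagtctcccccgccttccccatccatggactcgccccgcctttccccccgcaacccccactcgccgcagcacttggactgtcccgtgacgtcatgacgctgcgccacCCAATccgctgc

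Checks of the arrays came first. The Mir96 feature read 4.01 to 4.31 in knockout and 5.26 to 6.23 in control animals, so by that feature no array contradicted its label. The Mir183 feature, dim on these arrays, overlapped between the groups, at 1.82 to 2.40 in knockout and 2.23 to 2.84 in control animals, with a difference of -0.33 (limma adjusted p = 0.398). Signal range, the SD of an array's log2 values over the tested features, was 1.49 ± 0.06 in control animals against 1.40 ± 0.03 in knockout animals (SD, n = 4). Control replicate 3, at 1.41, lay within the knockout range of 1.37 to 1.44. Among all features the median difference went from 0.13 in the lowest decile of mean signal to -0.21 in the highest, where 87.7% of the 2352 features had a negative difference. Cochlear markers were present: all 15 listed were measured, with Coch and Otos above the 99th percentile of mean signal, and Slc26a5, the outer hair cell motor gene, at the 23.9th. Of these 15 markers, 12 had a negative difference, with a median of -0.13. At an unadjusted p under 0.05, 4 were lower and 0 higher, where 7.25% of all features were lower and 7.04% higher. The 4 were Fbxo2 (-0.42), Coch (-0.35), Gjb6 (-0.35) and Kcne1 (-0.28), with a smallest limma adjusted p of 0.301. The 4 defining cell cycle markers had clear signal too, with Ccna2 at the 98.1th percentile, Mcm5 at the 95.7th, Aurkb at the 93.0th and Cenpe at the 91.9th. These ranks describe probe signal and are not an order of RNA amounts.

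No member of the set passed the test between knockout and control cochlea, while 37 of 38 had a negative log2 difference and Tyms alone a positive value. All differences are knockout minus control on the log2 scale, from a limma fit over all 23521 features, with p-values adjusted by the Benjamini-Hochberg method and a threshold of 0.05. The count past the threshold was 0 of 38, where 0.0128% of all features passed, all of them lower. The smallest adjusted p of a member was 0.301. The median member difference was -0.30, with a range from -0.48 for Prim1 to 0.02 for Tyms, while the median of all features was 0.01. Negative differences made up 47.6% of all features. In the eighth, ninth and highest deciles of mean signal, which hold 35 of the members, they made up 69.1%, 82.4% and 87.7% of features. Because the members were chosen with earlier results of these data known, this comparison describes the set and does not test it. At an unadjusted p under 0.05 there were 11 members lower and 0 higher, where 7.25% of all features were lower and 7.04% higher. In 0 of 38 members did the groups separate. Every knockout value was below every control value in 2.65% of all features and above in 3.30%, so the member count lay near these shares.

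**Figure D1:**
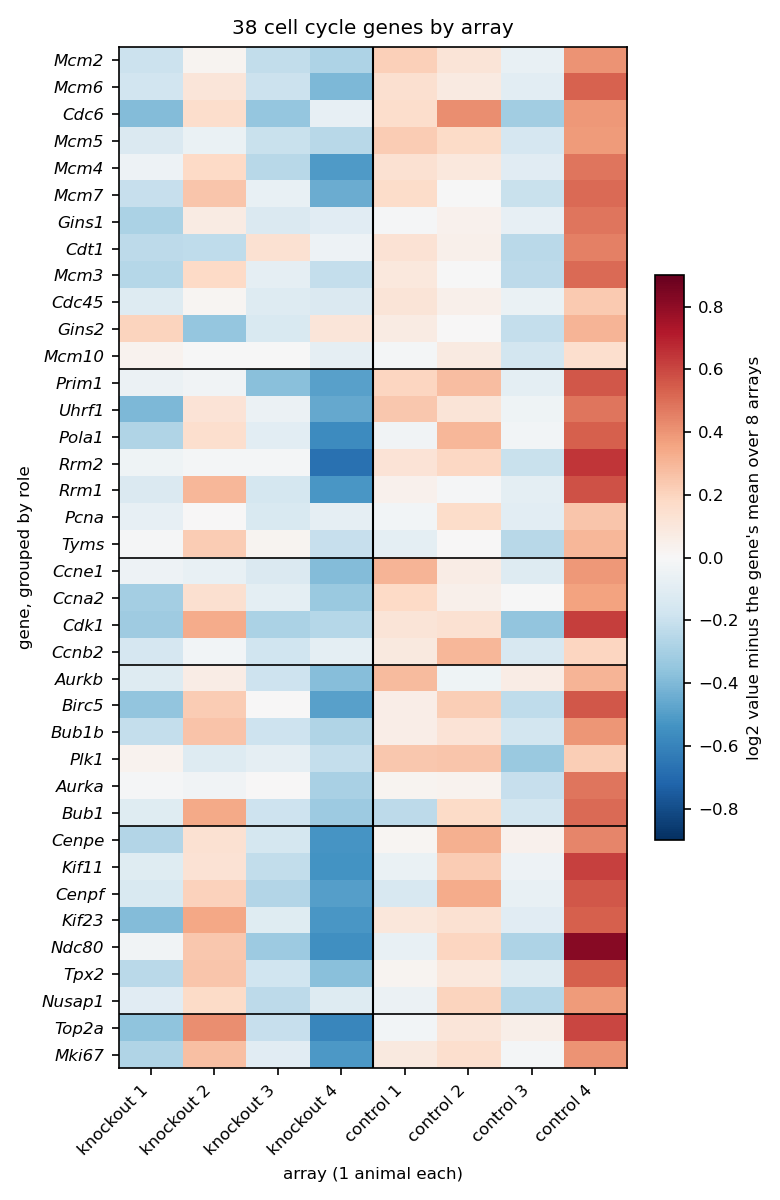
Log2 value of each of 38 genes (rows, grouped by role) in 8 arrays (columns), minus that gene's mean over the arrays; red is above and blue below that mean. Control replicate 4 is the highest array in 35 rows and knockout replicate 4 the lowest in 26, and control replicate 3 is the lowest control in 31.

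The members varied together from animal to animal, and the animals of a group were not alike. Control replicate 4 had the highest value of all 8 arrays in 35 of 38 members, and knockout replicate 4 the lowest in 26. Within the knockout group, replicate 2 was the highest in 32 members. Within the control group, replicate 3 was the lowest in 31, and it lay below the control mean in all 38. The mean value over the 38 members was 6.88, 7.16, 6.90 and 6.71 in knockout replicates 1 to 4 and 7.12, 7.18, 6.91 and 7.50 in control replicates 1 to 4. Knockout replicate 2 was thus above control replicates 1 and 3, and the groups overlapped. The group means were 6.91 ± 0.19 and 7.18 ± 0.24 (SD, n = 4).

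The median difference depended on which animals and which scaling were used. It was -0.18, with 34 of 38 members negative, without control replicate 4. The count at an unadjusted p under 0.05 went from 11 to 1 without control replicate 4 and to 2 without knockout replicate 4. Leaving out knockout replicate 1 gave 6, and knockout replicate 3 or control replicate 1 gave 7. Leaving out knockout replicate 2 gave 25 and control replicate 3 gave 24. Cyclic loess reduces trends with signal between arrays. After it, all features had a median of -0.03 and those of the highest signal decile still -0.07. The member median was then -0.16 with 35 members negative, and 4 were lower at an unadjusted p under 0.05. After repeated quantile normalization the median was -0.18 and that count 6. Adding signal range to the model as a covariate turned the median to 0.12, with 8 of 38 negative, 0 members lower and 4 higher at an unadjusted p under 0.05. That covariate is computed from the tested features and is lower in knockout arrays, so it overlaps with genotype. No member passed the adjusted threshold in any of the 19 alternatives.

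**Figure D2:**
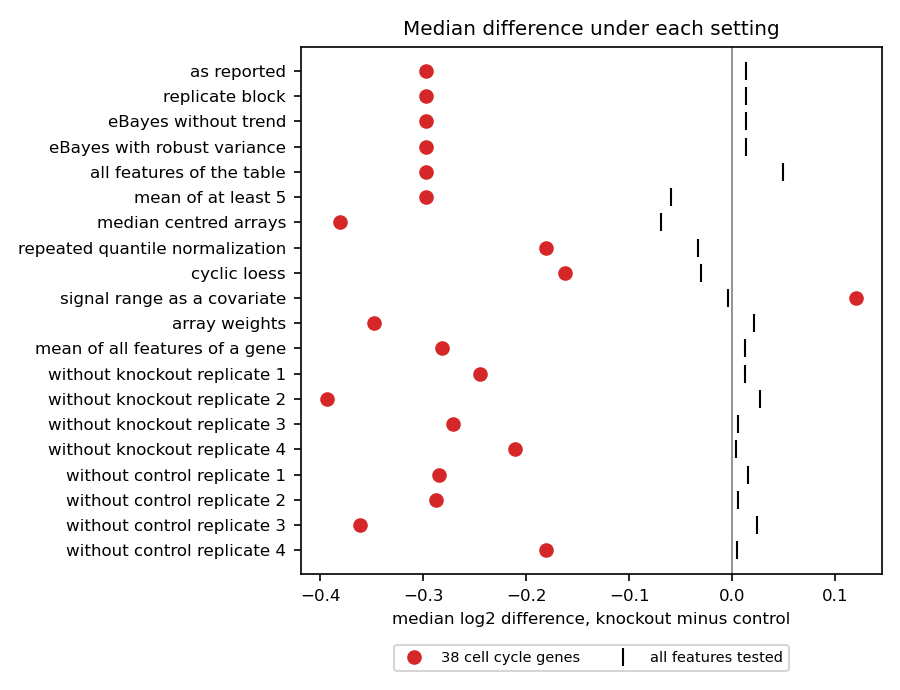
Median log2 difference of the 38 genes (red points) and of all features tested (black ticks) for the reported fit and 19 alternatives (rows). The red points lie between -0.39 and -0.16 in every row but that with signal range as a covariate, where the median is 0.12.

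The negative differences of the members were set beside those of features with like signal, because difference and signal went together over the whole array. By mean signal, 18 of 38 members lay in the highest decile, 10 in the ninth, 7 in the eighth, 2 in the seventh and 1, Gins1, in the fourth. The median over all features was -0.21 in the highest decile, -0.16 in the ninth and -0.09 in the eighth. Of the 38 members, 32 had a difference below the median of their own decile, which is 33 after cyclic loess and 22 without control replicate 4. It was 9 when signal range entered the model. The 6 members at or above it were Mcm10, Gins2, Pcna, Tyms, Plk1 and Nusap1. This is a description without a test, since the members vary together.

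**Figure D3:**
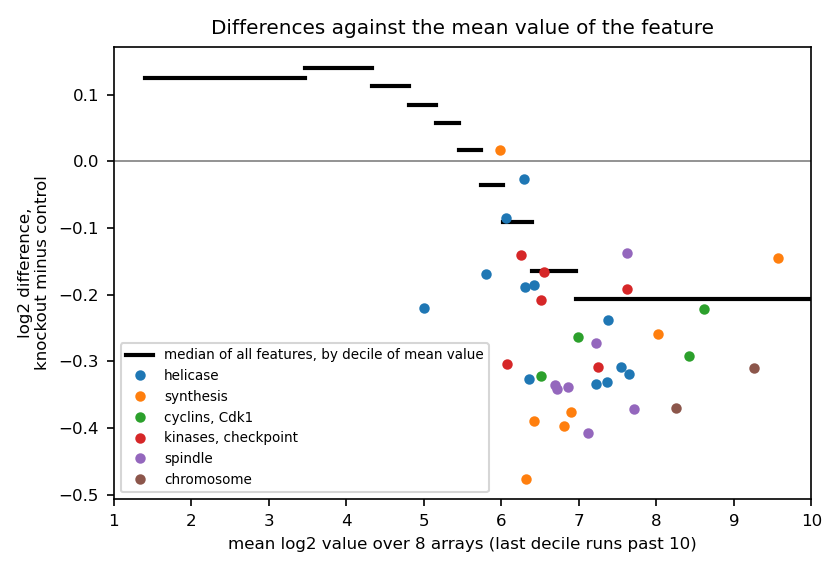
Log2 difference, knockout minus control, against mean log2 value over 8 arrays, for the 38 genes (points, coloured by role) and as the median of all features in each decile of mean value (black bars). The bars run from 0.13 in the lowest decile to -0.21 in the highest, and 32 of the points lie below the bar of their decile.

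Genes that form, load or activate the helicase, which unwinds DNA at the replication fork, all had negative differences, with a median of -0.23 over 12 members. Mcm2, a subunit of the ring-shaped MCM complex, read 7.03, 7.24, 6.99 and 6.94 in knockout replicates 1 to 4 and 7.43, 7.33, 7.15 and 7.62 in control replicates 1 to 4. Only control replicate 3 lay below a knockout value, that of knockout replicate 2. The Mcm2 difference was -0.33 (SE 0.12, limma adjusted p = 0.305). For Mcm5, another subunit of the ring, the knockout values were 7.51, 7.59, 7.45 and 7.40 and the control values 7.88, 7.82, 7.50 and 8.03. Again control replicate 3 alone overlapped with the knockout range, and the difference was -0.32 (SE 0.12, limma adjusted p = 0.305). The other subunits of the ring read -0.33 for Mcm6, -0.31 for Mcm4, -0.24 for Mcm7 and -0.18 for Mcm3. The Mcm6 difference was among the 3 of this role at an unadjusted p under 0.05, with Mcm2 and Mcm5.

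Among the loading and activating factors, Cdc6, which recruits the helicase to origins, had a difference of -0.33 and its partner Cdt1 of -0.19. Cdc45 and the GINS subunits, which turn the ring into the active helicase, read -0.17 for Cdc45, -0.22 for Gins1 and -0.09 for Gins2. Mcm10, an activator of the assembled helicase, read 6.32, 6.29, 6.29 and 6.21 in knockout and 6.27, 6.37, 6.13 and 6.44 in control animals. These values interleave, and the Mcm10 difference of -0.03 (SE 0.11, limma adjusted p = 0.915) was the closest to 0 of the role. Its sign was positive after cyclic loess, after repeated quantile normalization and without control replicate 4, when it was 0.03, 0.02 and 0.02. Gins2 turned to 0.02 without knockout replicate 2 and to 0.0017 without control replicate 4.

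The genes of DNA synthesis and nucleotide supply had a median difference of -0.38 over 7 members. That median is the value of Rrm2 from its brighter feature, and it was -0.26 when the features of a gene were averaged. Prim1, the primase subunit that starts each new strand, read 6.27, 6.29, 5.94 and 5.83 in knockout and 6.52, 6.60, 6.24 and 6.89 in control animals. Control replicate 3 lay below knockout replicates 1 and 2, and the other control values above all knockout values. The Prim1 difference of -0.48 (SE 0.15, limma adjusted p = 0.301) was the lowest of all members, at an unadjusted p of 0.0071, and equals 1.39-fold lower in knockout. Its partner Pola1, the catalytic subunit of DNA polymerase alpha, read -0.39, and Uhrf1, which guides maintenance DNA methylation after replication, read -0.40. Prim1, Pola1 and Uhrf1 were the members of this role at an unadjusted p under 0.05.

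The ribonucleotide reductase subunits, which make deoxynucleotides, read -0.26 for Rrm1 and -0.38 for Rrm2. Pcna, the sliding clamp of the polymerases, read -0.14. Tyms, thymidylate synthase, was the exception in sign, with 5.97, 6.21, 6.01 and 5.78 in knockout and 5.90, 5.99, 5.73 and 6.28 in control animals. The groups overlapped over nearly their whole range, and the Tyms difference was 0.02 (SE 0.14, limma adjusted p = 0.958). It was negative after median-centring (-0.07), with array weights (-0.01), and without knockout replicate 2 (-0.05), control replicate 1 (-0.0081) or control replicate 3 (-0.06).

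Cyclins and their kinase had negative differences in all 4 measured members, with a median of -0.28. Ccne1, the cyclin of S phase entry, read 6.47, 6.45, 6.38 and 6.12 in knockout and 6.82, 6.58, 6.40 and 6.90 in control animals. Control replicate 3 fell among the knockout values and the other controls lay above them. The Ccne1 difference was -0.32 (SE 0.13, limma adjusted p = 0.316). Ccna2, the cyclin of S phase and early mitosis, read 8.12, 8.57, 8.34 and 8.09 in knockout and 8.60, 8.47, 8.42 and 8.78 in control animals. Knockout replicate 2 lay above control replicates 2 and 3 here, and the difference was -0.29 (SE 0.13, limma adjusted p = 0.335). Ccnb2, a mitotic cyclin, read 8.47, 8.60, 8.44 and 8.53 in knockout and 8.71, 8.92, 8.48 and 8.82 in control animals. Its control replicate 3 again lay inside the knockout range, and the Ccnb2 difference was -0.22 (SE 0.11, limma adjusted p = 0.378). Cdk1, the kinase that these mitotic cyclins switch on, had a difference of -0.26.

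Mitotic kinases and checkpoint genes had a median difference of -0.20 over 6 members, all negative. Aurkb, the kinase that corrects chromosome attachment, read 7.14, 7.32, 7.07 and 6.87 in knockout and 7.54, 7.22, 7.32 and 7.56 in control animals. Knockout replicate 2 lay above control replicates 2 and 3, and the Aurkb difference was -0.31 (SE 0.12, limma adjusted p = 0.308). Birc5 (survivin), its partner in the chromosomal passenger complex, read -0.30. The spindle pole kinase Aurka read -0.17 and Plk1, a kinase of mitotic entry and spindle assembly, -0.19. Bub1, a kinase of the spindle checkpoint, read 6.15, 6.60, 6.07 and 5.93 in knockout and 6.02, 6.43, 6.09 and 6.77 in control animals. Control replicates 1 to 3 lay within the knockout range, and the Bub1 difference of -0.14 (SE 0.18, limma adjusted p = 0.709) was 0.0069 without control replicate 4. The related checkpoint gene Bub1b read -0.21.

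Spindle and kinetochore genes had a median difference of -0.34 over 7 members, all negative. Cenpe, the kinesin motor that lines up chromosomes, read 6.86, 7.26, 6.97 and 6.59 in knockout and 7.14, 7.44, 7.16 and 7.56 in control animals. Knockout replicate 2 exceeded control replicates 1 and 3, and the Cenpe difference was -0.41 (SE 0.15, limma adjusted p = 0.305). The motors Kif11, which pushes spindle poles apart, and Kif23, which acts in cell division after chromosome separation, read -0.37 and -0.34. The kinetochore genes Cenpf and Ndc80 read -0.34 and -0.34, and the spindle assembly factor Tpx2 -0.27. Nusap1, a microtubule-binding spindle protein, read 7.52, 7.80, 7.39 and 7.51 in knockout and 7.57, 7.83, 7.37 and 8.01 in control animals. Control replicate 3 lay below all knockout values and control replicate 1 below that of knockout replicate 2, and the Nusap1 difference was -0.14 (SE 0.14, limma adjusted p = 0.642). It turned to 0.02 after cyclic loess and to 0.0072 after repeated quantile normalization.

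The chromosome genes Top2a and Mki67 mark nearly all dividing cells. Top2a read 7.89, 8.68, 8.05 and 7.67 in knockout and 8.23, 8.37, 8.31 and 8.86 in control animals. Knockout replicate 2 lay above control replicates 1 to 3, and the Top2a difference was -0.37 (SE 0.19, limma adjusted p = 0.389). Mki67, the Ki-67 proliferation antigen, read 8.99, 9.54, 9.17 and 8.75 in knockout and 9.35, 9.42, 9.25 and 9.67 in control animals. The same knockout animal lay above control replicates 1 to 3, and the Mki67 difference was -0.31 (SE 0.15, limma adjusted p = 0.373).

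**Figure D4:**
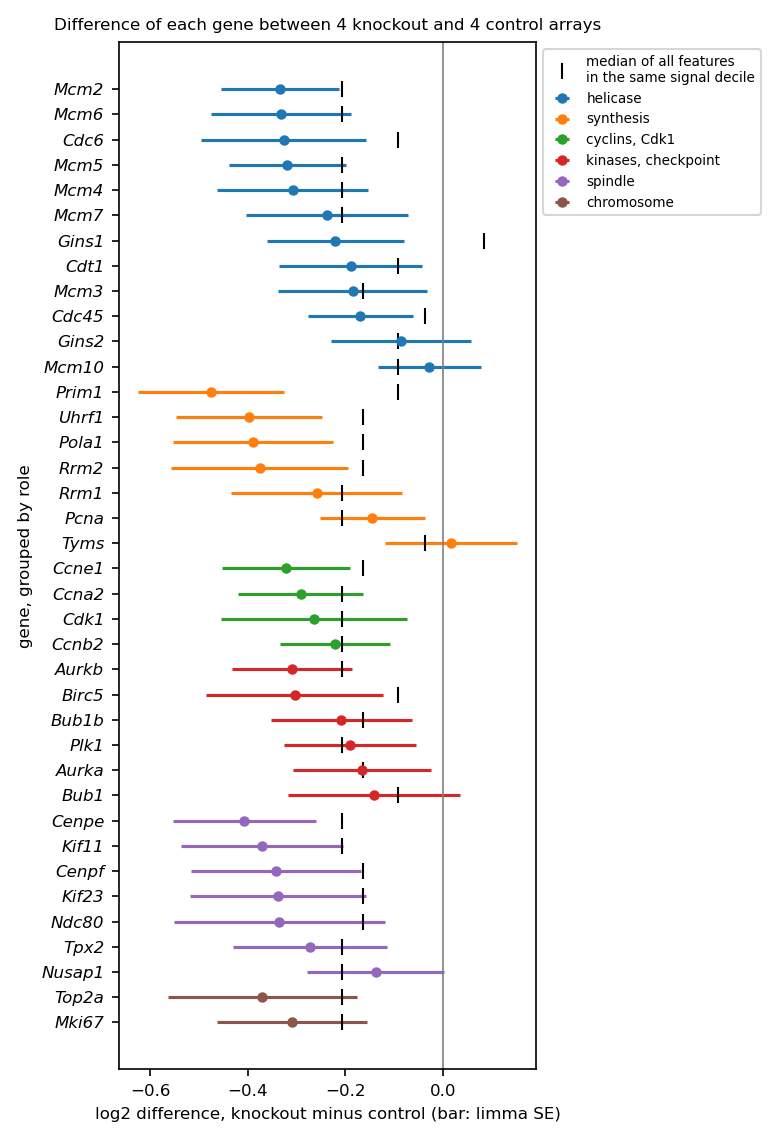
Log2 difference, knockout minus control, of 38 genes (points, with limma's SE as bars, coloured by role), with the median difference of all features in the same decile of mean signal as a black tick. Prim1 has the lowest difference (-0.48) and Tyms the only positive value (0.02).

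Replication and mitotic members had medians close to each other. The 19 replication members had a median difference of -0.26 and the 15 members of the kinase, spindle and chromosome roles of -0.31, and the difference between the medians was not tested. Members with an E2F motif in their promoter had a median of -0.33 (7 measured) and those without one of -0.26 (25 measured). For CHR motifs the medians were -0.26 with (9) and -0.32 without (23), and for CCAAT -0.31 with (25) and -0.30 without (7).

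Of the other cell cycle genes listed for S phase, mitosis and entry, 0 passed the adjusted threshold in either direction. Among other S phase genes, 32 of 35 measured had a negative difference, with a median of -0.25, and 8 were lower and 0 higher at an unadjusted p under 0.05. The 4 with the smallest p were Pole, the catalytic subunit of DNA polymerase epsilon (-0.42), Dbf4, the activator of the Cdc7 kinase (-0.43), Brip1, a repair helicase (-0.42), and Cdca7 (-0.29). Among other genes of the second gap phase and mitosis, 49 of 52 were negative, with a median of -0.24, and 16 were lower and 0 higher at an unadjusted p under 0.05. Those with the smallest p were Cdc25c, the phosphatase that activates Cdk1 (-0.45), Racgap1, the partner of Kif23 (-0.32), the heterochromatin protein gene Cbx5 (-0.45), and Cdca3 (-0.31). Knockout and control values did not overlap in 2 genes of each of these lists, Pole and Cdca7 for S phase and Cdc25c and Kif2c for mitosis, named for that reason after their values were seen, all with lower knockout values. Over all features that share was 2.65%. At an unadjusted p under 0.05, 7.25% of all features were lower and 7.04% higher. By mean signal, 17 of the 35 S phase genes and 35 of the 52 mitosis genes lay in the ninth or highest decile. In those deciles, 82.4% and 87.7% of all features had a negative difference.

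Genes that set entry into the cycle also did not pass. Of 24 measured regulators, 21 had a negative difference, with a median of -0.23, and 2 were lower and 0 higher at an unadjusted p under 0.05. At that p, 7.25% of all features were lower and 7.04% higher, so the count of lower regulators lay near the share over all features. The 2 lower regulators were the D cyclins Ccnd2 (-0.46) and Ccnd1 (-0.26). For Ccnd1 the knockout values of 5.92 to 6.11 did not reach the control values of 6.19 to 6.30. Such a separation with lower knockout values was seen in 2.65% of all features. The pocket protein gene Rbl2 read -0.22, and E2f8, a repressor of the E2F family, -0.32. The inhibitors that keep cochlear cells out of the cycle read -0.19 for Cdkn1b (adjusted p = 0.506) and -0.18 for Cdkn2d (adjusted p = 0.493), both by limma. E2f1, an activator of replication genes, read -0.0017.

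Markers of blood cell lineages were set beside the members, since precursors of these lineages divide in marrow. B lineage markers were negative in 10 of 11 measured, with 7 lower and 0 higher at an unadjusted p under 0.05, where 7.25% of all features were lower and 7.04% higher. The exception was Vpreb1, a surrogate light chain gene of precursor B cells, at 0.21, with all its knockout values above the control values. Its mean signal lay in the fourth decile, where the median difference of all features was 0.08. Cd79b (-0.44) and Igll1 (-0.30) separated the other way, with all knockout values below the control values. Over all features, knockout values were all higher in 3.30% and all lower in 2.65%. The mean of the list was 6.86, 7.22, 7.15 and 7.02 in knockout replicates 1 to 4 and 7.33, 7.39, 7.20 and 7.54 in control replicates 1 to 4. Erythroid markers were negative in 8 of 8 measured, with mean values of 7.39, 7.95, 7.71 and 7.33 in knockout and 7.88, 7.78, 7.52 and 8.34 in control animals. Control replicate 4 was the highest array and knockout replicate 2 the highest of its group for the members and for both of these lists, and control replicate 3 the lowest control. The same held for neutrophil and granulocyte precursor markers, although their group means differed by 0.01. Their means were 8.69 to 8.90 in knockout and 8.49 to 9.07 in control animals. Of these 12 markers, 6 were negative: Prtn3 (-0.39), Elane (-0.27), Mpo (-0.23), Ctsg (-0.17), Ltf (-0.04) and Ngp (-0.01). The other 6 were positive: S100a9 (0.35), S100a8 (0.27), Retnlg (0.22), Camp (0.21), Mmp8 (0.16) and Csf3r (0.08). Bone and cartilage markers were negative in 11 of 11, with means of 8.03 to 8.49 in knockout and 8.25 to 8.58 in control animals, where control replicate 4 was not the highest. Of these, Col1a1 (-0.42) and Col1a2 (-0.33) also had all knockout values below the control values, as 2.65% of all features did. All features of the eighth, ninth and highest deciles of signal, where the erythroid, neutrophil, bone and cartilage markers lie, were negative in 69.1%, 82.4% and 87.7%. Skeletal muscle markers were negative in 13 of 15, with means of 5.48 to 6.47 in knockout and 6.21 to 7.98 in control animals. Control replicate 2 had the highest muscle mean and control replicate 4 the lowest of the controls. Cochlear markers had their highest mean in control replicate 1, at 6.77, and their lowest control mean in control replicate 2, at 6.57. Among them 1, Pou4f3 (-0.10), had all knockout values below the control values. At an unadjusted p under 0.05, 2 erythroid, 3 bone and cartilage and 5 muscle markers were lower and 0 higher. For neutrophil markers 0 were lower and 1, S100a9, higher. The shares of all features were 7.25% lower and 7.04% higher. Signal range, like the members, had control replicate 4 highest, at 1.56, and knockout replicate 4 lowest, at 1.37. The part of these levels in the member differences was not tested.

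**Figure D5:**
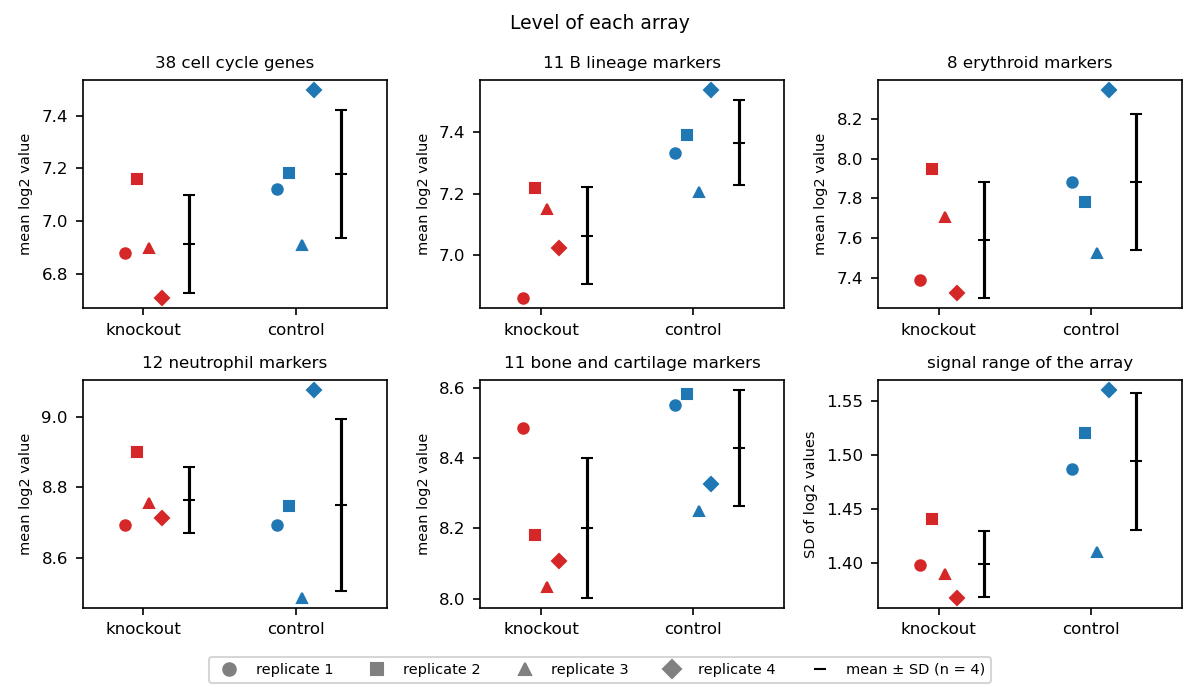
Mean log2 value per array of the 38 genes and of 4 marker lists, and the signal range of each array (SD of log2 values), for 4 knockout (red) and 4 control animals (blue); shapes mark the replicate and black bars give mean ± SD. Control replicate 4 is the highest in every panel but bone and cartilage, and control replicate 3 the lowest control in every panel. Muscle and cochlear markers, not drawn here, ranked the control arrays otherwise.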

How the data were processed

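The authors deposited RMA log2 values at gene level, made with Affymetrix Expression Console, per the labels' descriptions. Its version, the annotation release, scan dates and the set of arrays normalized jointly were not given in the sources used here. Values ran from 0.90 to 13.5, and arrays correlated at 0.947 to 0.976.

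Of 41345 features, the 23521 linked to exactly 1 symbol were tested, 1814 have several symbols and 16010 none. The highest mean chose among features of a gene. Knockout was compared with control by linear models (lmFit, then eBayes with its trend option) in limma 3.58.1 under R 4.3.3, adjusted by Benjamini-Hochberg over all features. The steps were tested on simulated data. Deciles rank features by mean value over the arrays.

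The members and all gene lists were chosen with earlier results of these data known. Values by animal are given for the 4 markers Ccna2, Aurkb, Cenpe and Mcm5, for any member past the threshold or without overlap (there were 0), and for the lowest and highest difference of each role. Of each wider list, the 4 genes with the smallest p were named, with Cdkn1b, Cdkn2d, Ccnd1 and E2f1. Alternatives comprised a block on replicate number, 2 other forms of eBayes, all features, a mean of at least 5, median-centring, repeated quantile normalization, cyclic loess, signal range as a covariate, array weights, averaged features and leaving out each array. Promoters and microRNAs come from RefSeq tables of GRCm38.p6.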

Additional observations from a re-analysis of the deposited data

Results flagged for a closer look

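In 6 of 76 checks of a member within a group of 4 animals, a single animal lay far from the other 3 by Dixon's test at the 95% level. For independent checks chance gives about 1 in 20. The members vary together, so the count cannot be read against that rate. Knockout replicate 2 stood above the rest of its group in Cdc45 (5.82, next 5.69), Cdk1 (7.33, next 6.74) and Bub1b (6.77, next 6.33). Knockout replicate 4 stood below its group in Rrm2 (6.23, next 6.86) and Aurka (6.26, next 6.52). Control replicate 3 stood below the other controls in Plk1 (7.29, next 7.85).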

How the results depend on the processing

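Over 19 alternatives, the count of members past the adjusted threshold stayed at 0 and so did that of the wider cell cycle lists. Members with a negative difference numbered 34 to 38 in every alternative but signal range as a covariate, where they numbered 8 and the median was 0.12. Leaving out an array in turn gave 34 to 38 negative members and medians from -0.39 to -0.18. The 11 members lower at an unadjusted p under 0.05 became 7 with all features of the table tested, 6 after repeated quantile normalization, 4 after cyclic loess, 22 with array weights, 0 with signal range as a covariate, and 1 to 25 when an array was left out. With signal range as a covariate 4 members were higher at that p, against 0 as reported.

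Replicate numbers are shared by the groups, and the labels state no pairing of animals. Deviations from the group means correlated at 0.06, 0.21, 0.21 and -0.29 for numbers 1 to 4. Of 4 knockout arrays, 1 correlated best with its own number. With so few arrays these values cannot settle whether animals were paired. With the number as a replicate block, 3 features passed over the array and 0 members, with the same median member difference of -0.30.

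Signs that turned with signal range as a covariate gave Mcm3 0.25, Mcm4 0.12, Mcm6 0.073, Mcm7 0.24, Mcm10 0.15, Cdc6 0.15, Cdt1 0.076, Cdc45 0.0027, Gins1 0.079, Gins2 0.048, Pcna 0.067, Pola1 0.061, Rrm1 0.22, Rrm2 0.16, Ccnb2 0.0062, and Cdk1 0.36, Aurka 0.20, Birc5 0.25, Bub1 0.37, Bub1b 0.20, Plk1 0.13, Cenpf 0.16, Ndc80 0.39, Kif11 0.11, Kif23 0.17, Tpx2 0.18, Nusap1 0.28, Top2a 0.12 and Mki67 0.072. Other sign changes were few. Mcm10 read 0.020 after repeated quantile normalization and 0.026 after cyclic loess, and Nusap1 0.0072 and 0.021. Tyms read -0.065 after median-centring and -0.013 with array weights. When an array was left out, Mcm10 ranged from -0.086 to 0.018, Gins2 from -0.17 to 0.016, Tyms from -0.063 to 0.12 and Bub1 from -0.28 to 0.0069. The cause was not tested. The number of arrays limits the precision, with an SE of 0.11 to 0.22 for single members, and no background level was used here.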
